A study of Mus musculus with 8 samples.

Results

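The fibroblast growth factor (Fgf) receptors and ligands described here are 10 genes, chosen by name: the 4 receptors Fgfr1, Fgfr2, Fgfr3 and Fgfr4, and the 6 ligands Fgf1, Fgf2, Fgf7, Fgf9, Fgf10 and Fgf18. They were found by the gene symbol of the array design and carry 24 probes, out of 24306 genes and 43941 probes with a single symbol on the array. Each probe is shown separately and named by its number in the value table.

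RNA of sorted lung cells was hybridised to 8 one-colour mouse arrays, 1 per group. Control (C-) mice were SftpCreERT2/+; Tomato flox/flox as the labels spell it (the SftpcCreERT2 and tdTomato alleles), with a tamoxifen-inducible Cre (and an rtTA) in the Sftpc locus, a tdTomato reporter and wild type Fgfr2b. Experimental (E-) mice carried in addition Fgfr2b flox/flox, in which Cre removes the exon specific to the epithelial IIIb form of the receptor. All mice, controls included, were 9 to 12 weeks old by the labels, of both sexes, and drank water with 1 mg/ml tamoxifen. AT2s are lineage-traced alveolar type 2 cells with a strong tdTomato signal, and IAAPs (injury activated alveolar progenitors) are lineage-traced cells with a weak one; the labels call both AT2. Both populations were collected on day 7 of tamoxifen from control mice, and on days 4, 7 and 14 from experimental mice. The Cre is driven by the Sftpc locus, so by design labelling and recombination were meant for cells that had used Sftpc. The comparisons ask how the receptors and ligands differ between the 2 populations and between the 2 genotypes.

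Fgf ligands bind Fgf receptors, which are tyrosine kinases, together with heparan sulfate on the cell surface, and the receptors signal through adaptors to the MAP kinase cascade. Alternative splicing of Fgfr2 gives an epithelial IIIb form, which binds Fgf7 and Fgf10 from the mesenchyme, and a IIIc form found mostly in mesenchyme. In the lung, Fgf10 and Fgfr2b drive branching of the epithelium and the formation of alveolar epithelial cells, while Fgf9 comes from the mesothelium and epithelium and acts on the mesenchyme.

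The values were log2 signals, background corrected and quantile-normalised by the authors. A probe was called above background on an array where its signal passed the 95th percentile of the signals of 1407 olfactory, vomeronasal and taste receptor genes, taken as unused in these cells. That level lay between 6.46 and 7.28 on 7 arrays and at 8.70 on the C-IAAP array, where 26.4% of all genes were above it, against 40.8% to 46.5% on the others. The C-IAAP array correlated with the other arrays at r = 0.845 to 0.876 across all genes, and the other 7 among themselves at r = 0.915 to 0.971 (genes are not independent replicates). This array therefore stood apart, and each comparison with C-IAAPs rests on it alone. All 9 AT2 cell markers were above background on all 8 arrays, while of 7 fibroblast markers at most 1 was, on the C-AT2 array. Of 6 smooth muscle and pericyte markers 2 to 3 were above background on each array, with Acta2 and Tagln so on all 8. Of 4 mesothelial markers 1 was, Wt1, on all 8 arrays. Of 10 alveolar macrophage markers, 3 to 7 were above background on the AT2 arrays, 7 in C-IAAPs and all 10 on each E-IAAP array. The log2 of their summed signal was 11.54 to 12.44 on the AT2 arrays, 15.14 in C-IAAPs and 16 to 16.32 on the E-IAAP arrays.

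Of the 10 genes, only Fgfr2, Fgfr3 and Fgf1 had a probe above background on all 8 arrays. Fgfr4 passed it on 1 array, and Fgfr1, Fgf2, Fgf7, Fgf9, Fgf10 and Fgf18 passed it on none. With the level set at the 99th percentile Fgfr2 and Fgf1 still passed on all 8 arrays but Fgfr3 on none, and at the 90th Fgfr4 passed on 6 arrays, Fgfr1 on 2 and Fgf9 on 1. By probe, 5 of 24 were above background on all 8 arrays, 3 more on 1 to 7 arrays, and 16 on none. The probes never above background read between 2.13 and 7.65, against a lowest signal of 1.63 for any probe on the arrays. In bulk RNA, fewer cells that use a gene and less of its RNA per cell cannot be told apart.

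**Figure D1:**
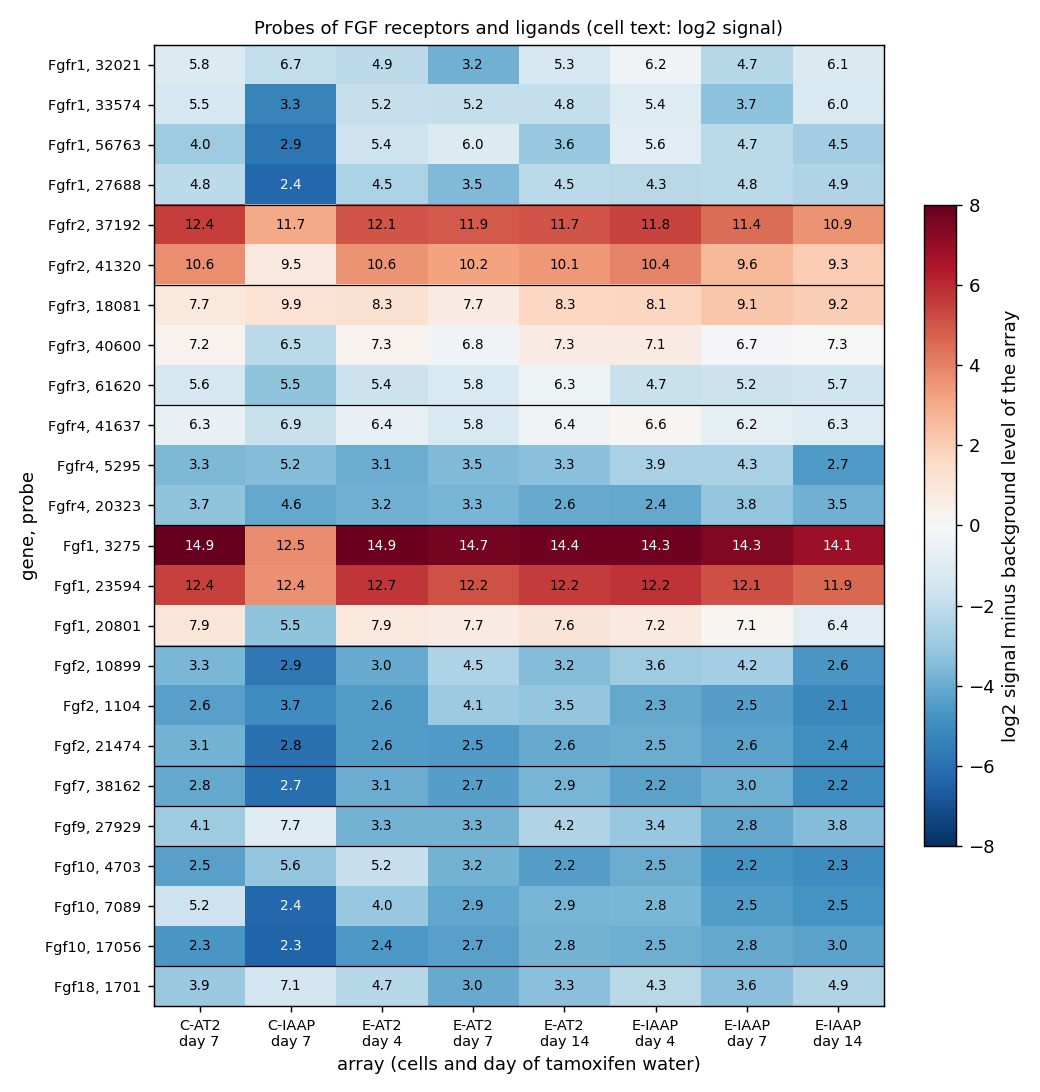
Log2 signal of the 24 probes of the 10 genes (rows, gene and probe number) on the 8 arrays (columns); the number in each cell is the log2 signal and the colour is that signal minus the background level of the same array, red above and blue below. Both Fgfr2 probes, 1 Fgfr3 probe and 2 Fgf1 probes are red in every column, and the rows of Fgfr1, Fgf2, Fgf7, Fgf9, Fgf10 and Fgf18 are blue in every column.

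Fgfr2 is the receptor whose IIIb exon was floxed (GRCm38.p6, chr7:130162451-130266808). Its brighter probe, 37192, read 12.45 in C-AT2s and 11.72 in C-IAAPs. In E-AT2s it read 12.10, 11.95 and 11.68 on days 4, 7 and 14, and in E-IAAPs 11.83, 11.39 and 10.87. The C-AT2 array was the highest of the 8 and the day 14 E-IAAP array the lowest, and the E-AT2 and E-IAAP values overlapped. The other probe, 41320, read 10.61 in C-AT2s and 9.50 in C-IAAPs. It read 10.65, 10.24 and 10.12 in E-AT2s, and 10.42, 9.60 and 9.31 in E-IAAPs. On this probe the C-AT2 value was within the E-AT2 range and the C-IAAP value within the E-IAAP range. Where either probe lies relative to the floxed exon is not given in the sources used here, so neither tells whether that exon was deleted.

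Both Fgfr2 probes were lower at each later day in both experimental populations. From day 4 to day 14 probe 37192 fell by 0.42 in E-AT2s and by 0.96 in E-IAAPs on the log2 scale, and probe 41320 fell by 0.53 and by 1.10. On each day E-IAAPs were below E-AT2s of the same day, by a log2 difference of -0.27, -0.56 and -0.80 on days 4, 7 and 14 for probe 37192, and of -0.23, -0.64 and -0.81 for probe 41320. The gap was thus wider at each later day on both probes. Markers of airway cells moved over the same E-IAAP arrays: of 4 ciliated cell markers 2, 2 and 4 were above background on days 4, 7 and 14, with a log2 summed signal of 9.42, 9.60 and 13.76, and the summed signal of 3 club cell markers, above background on every array, was 15.92, 16.16 and 16.94. That of the 9 AT2 cell markers was 17.81, 17.81 and 17.61. On the E-AT2 arrays, where no ciliated marker was above background, the club cell sum was 14.56, 15.17 and 15.36 and the AT2 sum 17.98, 17.86 and 17.98. The part of these airway and AT2 cells in the Fgfr2 course was not tested. With 1 array per day and population, and controls on day 7 alone, this course was not tested. A fall at both steps in both populations occurred in 2.72% of all genes (660 of 24306), and in 3.46% of the 8479 genes that were above background on all 6 experimental arrays. Of the 10 genes only Fgfr2 did so by its brightest probe, and of the other probes only Fgf1 probe 20801 did so.

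Averaged over the days, Fgfr2 probe 37192 was 11.91 ± 0.21 (SD, n = 3) in E-AT2s and 11.36 ± 0.48 (SD, n = 3) in E-IAAPs. The difference, with day as a block, was -0.54 (95% interval -1.24 to 0.15, limma adjusted p = 0.501), which did not pass the test although E-IAAPs were lower on all 3 days. The E-AT2s differed from C-AT2s by -0.54 (95% interval -1.61 to 0.52, limma adjusted p = 0.977). The C-IAAPs differed from C-AT2s by -0.72 (95% interval -2.03 to 0.58, limma adjusted p = 0.412). The E-IAAPs differed from C-IAAPs by -0.36 (95% interval -1.43 to 0.71, limma adjusted p = 0.621), and this value changed sign, to 0.28, when arrays were centred on genes used by every cell. The second probe also had the opposite sign there, 0.28 (95% interval -0.93 to 1.48). No direction of Fgfr2 between E-IAAPs and C-IAAPs was therefore settled. The intervals leave room for a log2 difference of more than 1 in each comparison.

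**Figure D2:**
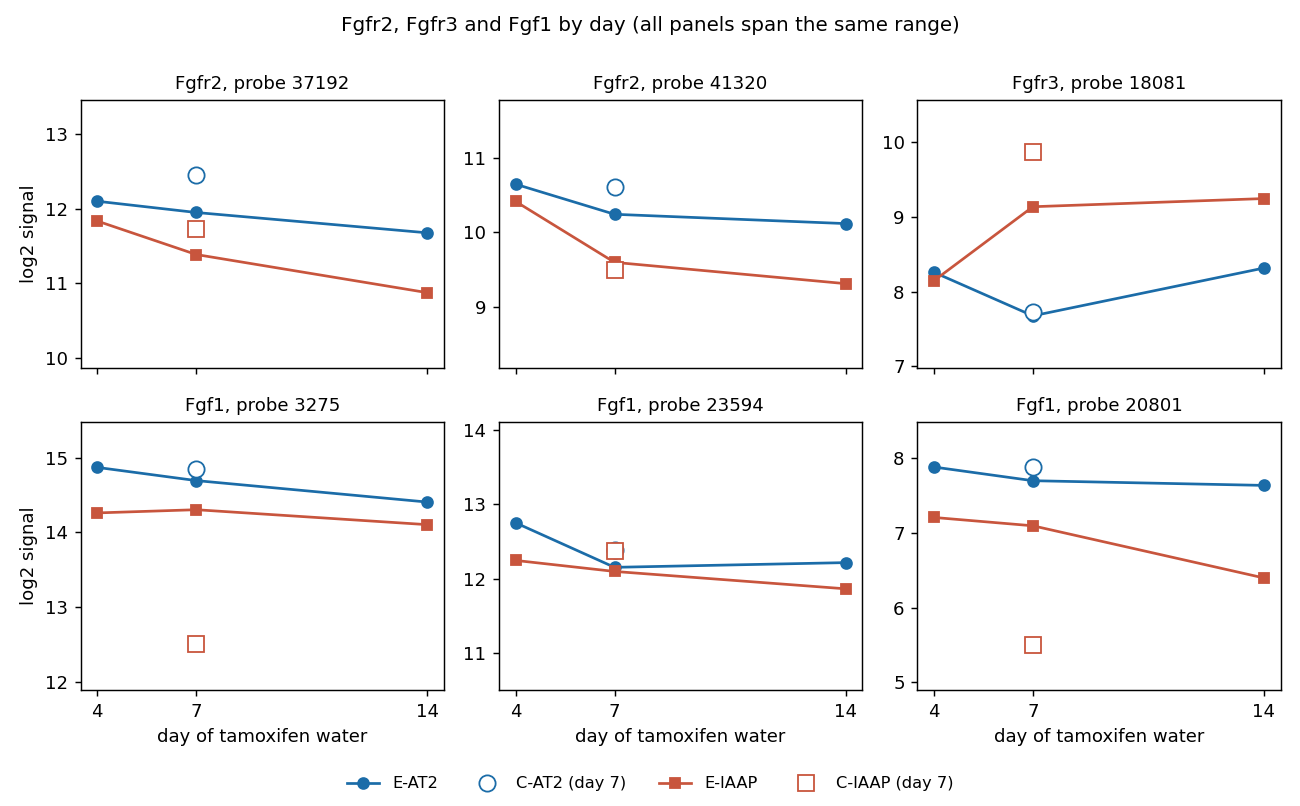
Log2 signal (vertical axes, each panel spanning the same range of log2 units) against day of tamoxifen water for the 6 probes named in the panels; filled symbols joined by lines are experimental mice, open symbols control mice on day 7, circles AT2s and squares IAAPs, 1 array per point. Both Fgfr2 probes fall from day 4 to day 14 in both populations, and the C-IAAP square lies far below the other points on Fgf1 probes 3275 and 20801 but on top of the C-AT2 circle on probe 23594.

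Fgfr3 (GRCm38.p6, chr5:33721724-33737068), best known as a brake on bone growth, was above background on all 8 arrays by its brightest probe, 18081. That probe read 7.73 in C-AT2s and 9.87 in C-IAAPs. It read 8.26, 7.67 and 8.32 in E-AT2s on days 4, 7 and 14, and 8.14, 9.14 and 9.25 in E-IAAPs. The IAAP arrays were higher than the AT2 array of the same day and genotype on day 7 in both genotypes and on day 14, and not on day 4. Probe 40600 read between 6.51 and 7.33, was above background on 5 arrays and did not follow this order, being lowest in C-IAAPs. Probe 61620 read between 4.67 and 6.27 and was never above background. The gap between probes 18081 and 40600 on 1 array was 3.36 in C-IAAPs and 0.57 to 2.40 on the other arrays. By probe 18081 the C-IAAPs differed from C-AT2s by 2.14 (SE 0.66, limma adjusted p = 0.0735) and the E-IAAPs from E-AT2s by 0.76 (SE 0.39, limma adjusted p = 0.513), neither passing the threshold of 0.05. By probe 40600 these differences were -0.65 and -0.07.

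Fgfr1 was below background on every array and Fgfr4 on all but 1. Their brightest probes read 3.21 to 6.72 and 5.80 to 6.94, against a lowest signal of 1.63 for any probe. Fgfr1, a receptor widely used in mesenchyme, had 4 probes between 2.43 and 6.72 and none above background on any array. The brightest Fgfr4 probe, 41637, read 6.28 in C-AT2s and 6.94 in C-IAAPs, 6.45, 5.80 and 6.37 in E-AT2s, and 6.58, 6.22 and 6.27 in E-IAAPs on days 4, 7 and 14. It passed background only on the day 4 E-IAAP array, by 0.13 on the log2 scale, and the other 2 Fgfr4 probes passed it nowhere. The sorted samples thus showed signal for Fgfr2 on both of its probes and for Fgfr3 on 1 to 2 of 3 probes. Alveolar macrophage markers were also higher on the IAAP arrays, and which cells of the samples gave the Fgfr3 signal was not tested.

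Fgf1, a ligand that binds all Fgf receptors and lacks a classical secretion signal, was the only 1 of the 6 ligands above background (GRCm38.p6, chr18:38838672-38929470). Probe 3275 read 14.85 in C-AT2s and 12.50 in C-IAAPs. It read 14.87, 14.70 and 14.41 in E-AT2s, and 14.26, 14.31 and 14.11 in E-IAAPs on days 4, 7 and 14. C-IAAPs were the lowest array by a wide margin, and all 3 E-IAAP arrays were below all 3 E-AT2 arrays. On probe 20801 C-IAAPs were again lowest and the E-IAAP arrays again all below the E-AT2 arrays, at 7.89 in C-AT2s and 5.50 in C-IAAPs, 7.89, 7.70 and 7.64 in E-AT2s, and 7.21, 7.10 and 6.40 in E-IAAPs, and was below background on the C-IAAP and the day 14 E-IAAP arrays.

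The third Fgf1 probe did not share this order. Probe 23594 read 12.38 in C-AT2s and 12.38 in C-IAAPs, 12.75, 12.15 and 12.22 in E-AT2s, and 12.24, 12.10 and 11.86 in E-IAAPs. The controls were level on it, and the E-AT2 and E-IAAP values overlapped. Within an array, probe 3275 exceeded probe 23594 by 2.02 to 2.54 on 7 arrays and by 0.13 on the C-IAAP array. The log2 differences of the 2 probes between C-IAAPs and C-AT2s were 2.34 apart. Among 1306 genes whose 2 brightest probes were above background on both control arrays, 53 (4.06%) were at least that far apart, with a median of 0.61. Which transcripts each Fgf1 probe reads is not given in the sources used here, and whether the probes or their transcripts differ was not tested.

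By its brightest probe Fgf1 was 5.10-fold lower in C-IAAPs than in C-AT2s (log2 difference -2.35, SE 0.43, limma adjusted p = 0.018). Probe 20801 differed by -2.39 (SE 0.53, limma adjusted p = 0.0315), and probe 23594 by -0.01 (95% interval -1.16 to 1.15). The Fgf1 level in E-IAAPs was 3.30-fold higher than in C-IAAPs (log2 difference 1.72, SE 0.35, limma adjusted p = 0.0196), where probe 23594 gave -0.31 (limma adjusted p = 0.636). Both calls rest on 1 C-IAAP array and were lost with the mean of all Fgf1 probes, at -1.58 (limma adjusted p = 0.0631) and 0.94 (limma adjusted p = 0.128). With day as a term both were lost as well (limma adjusted p = 0.051 and 0.0728). Without the day 4 arrays the first was lost (limma adjusted p = 0.0598), as it was without those of day 7 (0.056), and the second was lost without the arrays of any 1 of the 3 days (limma adjusted p between 0.0567 and 0.0805). Fewer of all genes passed as well in fits without a day or with day as a term. Their number fell from 3374 to between 1270 and 1873 in the first comparison, and from 4157 to between 1402 and 2442 in the second. The change of Fgf1 with genotype differed between IAAPs and AT2s by 1.92 (SE 0.49, limma adjusted p = 0.0762), which did not pass.

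Between E-IAAPs and E-AT2s, where C-IAAPs play no part, Fgf1 probe 3275 was 14.22 ± 0.11 (SD, n = 3) against 14.66 ± 0.23 (SD, n = 3). The E-IAAPs were lower on each day, by a log2 difference of -0.61, -0.39 and -0.30. The fitted difference was -0.44 (95% interval -1.10 to 0.23, limma adjusted p = 0.559). Fgf1 was the only 1 of the 10 genes whose 3 E-IAAP arrays did not overlap the 3 E-AT2 arrays by its brightest probe, as was the case for 19.2% of all genes. Fgf1 in E-AT2s differed from C-AT2s by -0.19 (95% interval -1.02 to 0.63).

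The remaining ligands were below background on all 8 arrays. Fgf7 and Fgf10, the mesenchymal ligands of Fgfr2b, read 2.16 to 3.11 on the single Fgf7 probe and 2.21 to 5.56 on the 3 Fgf10 probes. Fgf2, a ligand of many cell types, read 2.13 to 4.55 on 3 probes. Of the Fgf10 probes, 4703 was highest in C-IAAPs (5.56) and in day 4 E-AT2s (5.22), and 7089 was highest in C-AT2s (5.23), so they gave no shared order. Fgf9 read 7.65 on the C-IAAP array against 4.06 on the C-AT2 array, 3.26, 3.30 and 4.24 in E-AT2s, and 3.40, 2.83 and 3.83 in E-IAAPs. Fgf18, made by mesenchyme of the developing lung, read 7.15 on the C-IAAP array against 3.93 on the C-AT2 array, 4.74, 3.0 and 3.26 in E-AT2s, and 4.26, 3.60 and 4.87 in E-IAAPs. Both were highest in C-IAAPs, where the background level was also highest, and neither reached it there.

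Between E-IAAPs and E-AT2s none of the 10 genes passed an adjusted p of 0.05 in limma, against 1.31% of all 24306 genes (318). At an unadjusted p of 0.05, 1 of the 10 passed against 11.7% of all genes, namely Fgfr1 (1.18, limma adjusted p = 0.231), which was below background on every array. The median difference of the 10 genes was -0.17, and that of all genes -0.05. Between E-AT2s and C-AT2s none of the 10 passed and none of all genes did (0%), and at an unadjusted p of 0.05 these counts were 0 of 10 and 1609 of 24306.

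Between C-IAAPs and C-AT2s 2 of the 10 genes passed, Fgf1 lower and Fgf9 higher (3.60, SE 0.68, limma adjusted p = 0.0203), against 13.9% of all genes. By probe, 5 of 24 passed, against 13.1% of all probes; those other than the Fgf1 and Fgf9 probes were Fgf10 probe 7089 and Fgfr1 probe 27688, both lower and both below background. Between E-IAAPs and C-IAAPs 3 of the 10 passed, against 17.1% of all genes. These were Fgf1 higher, Fgf9 lower (-4.30, SE 0.56, limma adjusted p = 0.0053) and Fgf18 lower (-2.91, SE 0.77, limma adjusted p = 0.0445). The Fgf18 call was lost without the arrays of any 1 day (limma adjusted p between 0.071 and 0.0901), with day as a term (0.0617) and when arrays were centred on the 15 genes of general use (0.0897). Fewer of all genes passed too in the fits without a day or with day as a term, but not with centring. By probe 4 of 24 passed, against 16.6% of all probes, the fourth being Fgfr1 probe 27688. The Fgf9 and Fgf18 differences are between values below background in both groups, so no fold is given. The genotype effect differed between IAAPs and AT2s for 1 of the 10 genes, Fgf9, against 4.37% of all genes. With 10 genes, counts of 1 to 3 are close to what these shares of all genes amount to. The comparisons with C-IAAPs share that array, and the days of the experimental mice stood in for replicates, so the p-values measure the spread between days, which a lone control array is assumed to share.

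**Figure D3:**
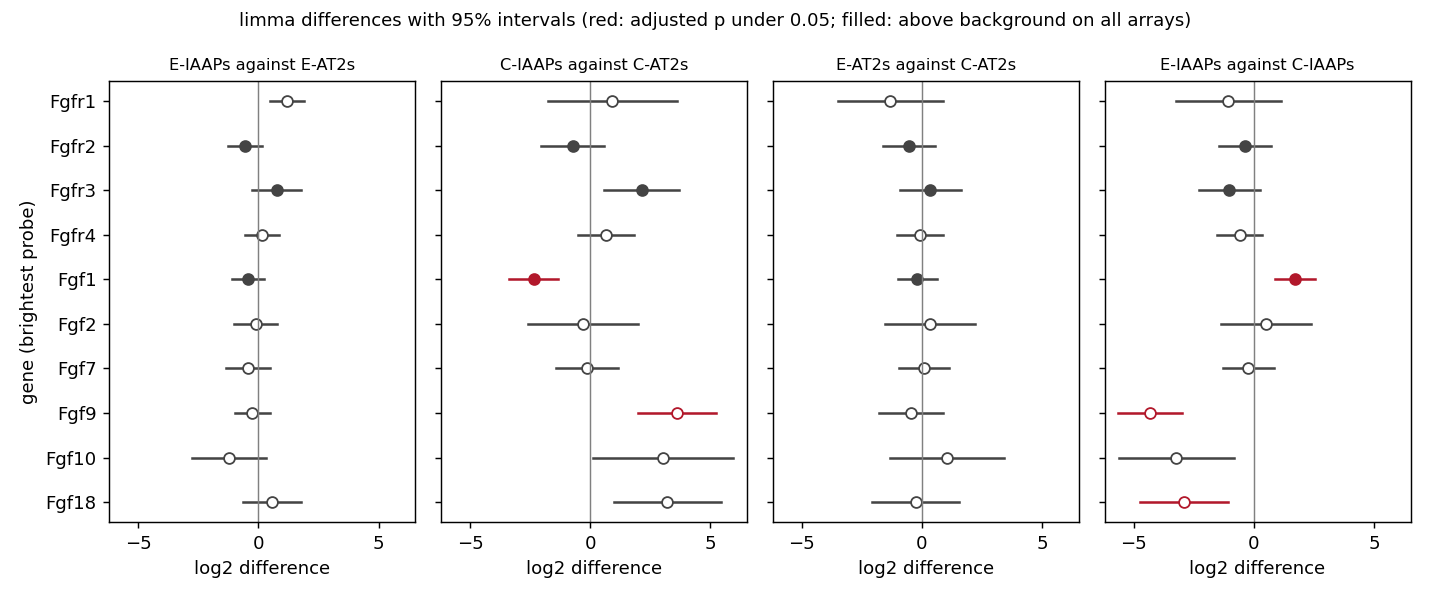
Fitted log2 differences (points) with 95% intervals (lines) of the brightest probe of the 10 genes in 4 comparisons; filled points mark Fgfr2, Fgfr3 and Fgf1, which were above background on all 8 arrays, and red marks an adjusted p under 0.05. Red points occur only in the 2 comparisons that use the C-IAAP array, and of these only Fgf1 is filled.

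The genes whose levels ran most like Fgfr2 over the 8 arrays, among 10525 genes above background on at least 4 arrays, were Rnf144b (r = 0.979), Cd36 (r = 0.973) and Eps8 (r = 0.966). Without the C-IAAP array their r over 7 arrays was 0.979, 0.973 and 0.974. Rnf144b encodes a ubiquitin ligase, Cd36 a receptor for fatty acid uptake and Eps8 an actin regulator. Those most like Fgf1 were Pafah1b1 (r = 0.997), Gins3 (r = 0.991) and Ube2j2 (r = 0.991), with 0.982, 0.939 and 0.945 without the C-IAAP array. Pafah1b1 read 9.75 in C-AT2s and 7.68 in C-IAAPs, 9.95, 9.66 and 9.40 in E-AT2s, and 9.30, 9.30 and 9.13 in E-IAAPs, which is the order of Fgf1 probe 3275 in outline. These r values describe the closest of many genes and carry no test.

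Of the 16 other Fgf genes measured, 3 were above background on all 8 arrays by their brightest probe: Fgf23, a hormone of bone that regulates phosphate, Fgf11, which stays inside the cell, and Fgf8, a ligand of early development. Fgf23 read 12.72 in C-AT2s and 13.89 in C-IAAPs, 12.58, 12.87 and 12.76 in E-AT2s, and 12.69, 12.97 and 13.18 in E-IAAPs, from a single probe. None of the 1407 sensory receptor genes had as high a mean signal as Fgf23 (12.96), 4 had one as high as Fgf11 (10.71) and 21 one as high as Fgf8 (8.88), against 4 for Fgfr2 (11.75), 25 for Fgfr3 (8.55) and 0 for Fgf1 (14.25). Fgf3, an Fgfr2b ligand, was above background on 4 arrays and read between 5.98 and 8.81 over all 8. None of the 16 passed in E-IAAPs against E-AT2s or in E-AT2s against C-AT2s, where 1.31% and 0% of all genes did. In E-IAAPs against C-IAAPs 2 of 16 passed, against 17.1% of all genes. Fgf11 was lower (-1.38, limma adjusted p = 0.048), a call lost in 8 of 10 alternatives that turned to 0.43 with the mean of its 3 probes, and Fgf12 was below background on every array. Fgf12 was also the 1 of 16 that passed in C-IAAPs against C-AT2s, against 13.9% of all genes.

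Of 14 co-receptors and Fgf binding proteins, the brightest were the heparan sulfate proteoglycans Sdc4, Sdc1, Gpc4 and Gpc3, all above background on all 8 arrays. Sdc4 read 14.39 in C-AT2s and 13.78 in C-IAAPs, 14.53, 14.82 and 14.82 in E-AT2s, and 14.78, 14.59 and 13.54 in E-IAAPs. None of the 14 passed between the populations of either genotype or between E-AT2s and C-AT2s. In E-IAAPs against C-IAAPs 2 of the 14 were lower and none higher, against 17.1% of all genes: Gpc4 (12.82 in C-IAAPs against 11.23, 11.62 and 11.42 on days 4, 7 and 14; limma adjusted p = 0.040) and Fgfbp1, a carrier that frees Fgfs from the matrix (9.95 against 7.76, 7.35 and 6.09; limma adjusted p = 0.030). Gpc4 lost its call in 7 of 10 alternatives and Fgfbp1 in 4. Without day 4 or day 7 arrays both were lost, and Gpc4 also without those of day 14 and with the mean of all its probes (-0.14, limma adjusted p = 0.810). Fewer of all genes passed in each of these fits too. The median difference of the 14 genes in that comparison was 0.54, the opposite sign to these calls, against -0.10 for all genes.

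The heparan sulfate enzymes had calls only in comparisons with C-IAAPs. In E-IAAPs against E-AT2s and in E-AT2s against C-AT2s, where 0 of 12 passed, 1.31% and 0% of all genes did. In C-IAAPs against C-AT2s 4 of 12 were lower and 1 higher, against 13.9% of all genes called in either direction. Ext1 and Ext2, the polymerases of the chain, Glce, an epimerase, and Sulf2, which removes sulfate from finished chains, were lower, and Hs3st1, a sulfotransferase, was higher. Ext2 read 12.17 in C-AT2s and 9.22 in C-IAAPs, 11.62, 11.70 and 11.56 in E-AT2s, and 11.86, 11.93 and 11.53 in E-IAAPs, so the C-IAAP array stood alone. In E-IAAPs against C-IAAPs the same 5 genes passed in the opposite direction, against 17.1% of all genes, as comparisons that share that array can. All 5 passed in C-IAAPs against C-AT2s in each of 10 alternatives; in E-IAAPs against C-IAAPs Ext1 was lost without day 4 (limma adjusted p = 0.0511), and Hs3st1 without day 4 (0.0577), without day 14 (0.0726) and with day as a term (0.0572). Fewer of all genes passed in those fits too. Ext1, Glce and Sulf2 were below background in C-IAAPs. Hs3st1 was below it in C-AT2s, at 5.43 against a level of 6.90, and above it on 5 of the 8 arrays. The median difference of the 12 genes was -0.15 in the first comparison and 0.62 in the second, against 0.09 and -0.10 for all genes. Sulf2 was also higher on all 3 E-IAAP arrays, 10.62, 10.40 and 10.73, than on the E-AT2 arrays, 8.72, 8.36 and 8.23 (2.15, limma adjusted p = 0.051), just short of the threshold, which it passed in 6 of 10 alternatives (lowest limma adjusted p = 0.00116, highest 0.262). The alveolar macrophage markers were higher on the same E-IAAP arrays, 9 of 10 passing, and their part in this difference was not tested.

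Of 15 adaptors and relays that carry the receptor signal, 12 were above background on all 8 arrays, led by the kinase Mapk3, the exchange factor Sos1, the phospholipase Plcg1 and the phosphatase Ptpn11. Only Mapk3 passed, higher in E-IAAPs (12.24, 12.27 and 11.88) than in C-IAAPs (10.38; limma adjusted p = 0.019), 1 of 15 against 17.1% of all genes, and it was lost without day 4 (limma adjusted p = 0.0878), without day 7 (0.0722) and with day as a term (0.0896). Fewer of all genes passed in those fits too. The other 14 passed in no comparison, and none of 9 target genes of Fgf receptor signaling did. Of all genes, 1.31% passed in E-IAAPs against E-AT2s and 0% in E-AT2s against C-AT2s. The share was 13.9% in C-IAAPs against C-AT2s, 17.1% in E-IAAPs against C-IAAPs and 4.37% for the difference of the genotype effect. With so few genes, these counts do not show that levels were unchanged. The median difference of the 9 target genes was -0.31 in E-IAAPs against E-AT2s and -0.19 in E-AT2s against C-AT2s. It was -0.12 in C-IAAPs against C-AT2s and -0.16 in E-IAAPs against C-IAAPs. Spry2, a feedback inhibitor, read 12.33 in C-AT2s and 11.51 in C-IAAPs, 12.51, 12.22 and 11.46 in E-AT2s, and 11.61, 11.53 and 10.90 in E-IAAPs. Etv5, a transcription factor switched on by the pathway, read 12.70 in C-AT2s and was highest in C-IAAPs, at 13.18. It read 12.75, 12.37 and 12.42 in E-AT2s, and 12.38, 12.39 and 11.85 in E-IAAPs. In E-IAAPs against E-AT2s Spry2 and Etv5 differed by -0.72 and -0.31, but the targets had no shared direction. Dusp6, Il17rd, Etv4 and Spry4 were higher, by 0.49, 0.64, 0.43 and 0.61, with Spry4 below background on every array. The other targets were lower.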

How the data were processed

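RNA of 8 sorted cell samples was amplified and hybridised to Agilent mouse arrays in 1 colour. The deposited values are log2 spot signals that the authors background corrected on negative control spots (NormExp) and quantile-normalised in limma, so a shift of all genes cannot be seen. Of 62976 spots, 43941 had 1 gene symbol by the platform annotation, updated through RefSeq tables. The brightest probe by mean stood for its gene (24306 genes), as in the study's methods, and each probe was also fitted.

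E-IAAPs against E-AT2s were fitted on the 6 experimental arrays with day as a block, the other comparisons in 1 model of 4 groups over 8 arrays. limma 3.58.1 (R 4.3.3) gave moderated tests, with Benjamini-Hochberg adjustment over all genes or probes and a threshold of 0.05, and was tested on simulated data. Whether animals were pooled is not stated. The number of arrays limits the precision.

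The genes and gene lists were chosen with earlier results of these data known. All 10 genes are named; of each pathway list, up to 4 genes with the highest mean and those that passed where there were 5 or fewer; and the 3 genes most like the brightest receptor and ligand. Alternatives were the mean of all probes, only genes above the median level, centring on 15 genes used by every cell, further quantile normalisation, another prior, day as a term or no block, other background percentiles, and leaving out each day.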

Additional observations from a re-analysis of the deposited data

Results flagged for a closer look

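The difference of the genotype effect between IAAPs and AT2s passed the test for Fgf9, at -3.84 on the log2 scale (SE 0.79, limma adjusted p = 0.0472). The Fgf9 probe read 7.65 in C-IAAPs and between 2.83 and 4.24 on the other 7 arrays, all below background. The call was lost without the arrays of any 1 of the 3 days. In each of those fits 0 of all 24306 genes passed, against 1062 in the main fit, so the loss tells nothing particular to Fgf9.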

How the results depend on the processing

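Centring the arrays on genes used by every cell moved all differences by -0.58 in C-IAAPs against C-AT2s, by 0.64 in E-IAAPs against C-IAAPs and by 0.11 in E-IAAPs against E-AT2s. It turned the Fgfr2 difference between E-IAAPs and C-IAAPs from -0.36 to 0.28 (limma adjusted p = 0.734). The Fgf11 difference in the same comparison turned from -1.38 to 0.43 with the mean of all probes. No other difference of Fgfr2, Fgfr3, Fgf1, the called Fgf9 and Fgf18, or the called pathway genes changed direction in the alternatives run, which for the pathway genes were added after seeing the data. These alternatives used the brightest probe or the mean of all probes. Some other single probes had the opposite sign. They include Fgfr3 probe 40600, at -0.65 in C-IAAPs against C-AT2s, and Fgf1 probe 23594, at -0.31 in E-IAAPs against C-IAAPs.

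Of the 10 genes, the 2 that passed in C-IAAPs against C-AT2s became 1 (Fgf9) with the mean of all probes and 1 (Fgf9) with day as a term, and 0 to 2 when each day was left out. The 3 that passed in E-IAAPs against C-IAAPs became 1 (Fgf1) among genes above the median level and 1 (Fgf9) with day as a term, and 1 to 2 without each day. They became 4 with a trended, robust prior, Fgf10 being added, and without day 4 those that passed were Fgf9 and Fgf10. Fgf10 differed by -3.21 in the main fit, where it did not pass, and was below background on every array. In both comparisons fewer of all genes passed with day as a term and without each day, as given with Fgf1. The 1 gene whose genotype effect differed became 0 with the mean of all probes, with centring on genes used by every cell and with day as a term, 0 without any of the days, and 2 (Fgf1 and Fgf9) with a trended, robust prior. With day as a term and without each day, 0 of all 24306 genes passed that test, so those settings tell nothing particular to the 10 genes. None of these settings gave 1 of the 10 genes a call in E-IAAPs against E-AT2s or in E-AT2s against C-AT2s. In the first of these comparisons 0 of all 24306 genes passed without any 1 of the days, against 318 in the main fit. In the second 0 of all genes passed in the main fit and at most 1 in any setting. Fgfr3 passed in C-IAAPs against C-AT2s among genes above the median level (limma adjusted p = 0.0376) and with the trended, robust prior (0.0312). The number of genes above background became 2 instead of 4 on the day 4 E-IAAP array at the 99th percentile, and 5 instead of 3 on the day 14 E-IAAP array at the 90th. At the 99th, Fgfr3 was above on no array. All 8 samples carry replicate number 1, so the number pairs nothing; day paired the experimental arrays as a block, and without that block also 0 of the 10 genes passed in E-IAAPs against E-AT2s. Signals below background bound no level.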
